A study of Mus musculus with 14 samples.

Results

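The type I interferon response genes are 39 genes, taken by symbol from a list of interferon-stimulated genes, out of 23420 gene symbols measured in dendritic cells (DCs) of the mouse popliteal lymph node. All 39 had a row in the count table, and all 39 were among the 14217 genes that passed the filter on low counts. Isg20 reached the filter level in 1 biotin-positive and 5 biotin-negative libraries, and Ifi44 in 3 biotin-negative libraries and no other, so a difference in these 2 genes is partly built into their passing. RNA was read by Smart-seq2 from 14 libraries of 150 sorted endogenous DCs, with a high level of MHC class II, positive for CD11c (intermediate, in the labels) and CD11b and negative for XCR1. All mice were C57BL/6; their age is not given in the labels.

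The libraries follow LIPSTIC, a method in which sortase on the CD40 ligand of a T cell hands a biotin-tagged peptide to a glycine tag on the CD40 of a DC that it touches. In 2 of the 3 groups the mice carried tagged CD40 (labelled G5-Cd40+/+; Cd40G5/G5 in the treatment text). They received OVA323-339-pulsed Cd40G5/G5 DCs in the footpad and, 18 hours later, OT-II CD4+ T cells of the genotype CD40lgSrtA/Y with CD4-Cre, a Cre active in T cells. Biotin-LPETG was given 46 hours after the T cells and lymph nodes were taken at 48 hours, and the recipients' own DCs were sorted by whether they carried biotin, giving 6 biotin-positive and 6 biotin-negative libraries. The Cd40-null group (2 libraries) came from Cd40-/- mice treated alike, except that transferred DCs and OT-II T cells were wild-type, so genotype and transferred cells differ together in each comparison with it. Every group was thus given pulsed DCs, T cells and substrate, and none was untreated. No label ties a library to a mouse, so each p-value rests on the spread from library to library, which may be technical.

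Type I interferons are cytokines that most cells release after sensing foreign nucleic acid. They bind the receptor made of IFNAR1 and IFNAR2, whose kinases JAK1 and TYK2 set off the assembly of ISGF3, a complex that holds STAT2 and IRF9. ISGF3 binds a short element in promoters, the interferon-stimulated response element (ISRE), and switches on genes whose products sense, degrade or block viruses, while IRF7 amplifies the response and USP18 dampens it. In DCs the response is known to accompany maturation and cross-priming.

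Promoters were examined for the ISRE because it is the element the members are thought to share. RefSeq promoter windows of GRCm38.p6, from 250 bases before to 50 after a transcript start, were found for 29 of the 39 members. Its core, spelled GAAA, 2 bases of any kind and GAAA again, was searched on both strands and stood in a window of 15 of these 29 members, against 3.99% of 27025 genes with a window. It occurred in 3 of the 7 matched members that fell in biotin-positive libraries and in 12 of the other 22. The gamma-activated site, spelled TTCNNNGAA and identical on both strands, stood in 6 of 29 members and in 9.55% of all genes; it overlapped an ISRE match in the windows of Bst2 and Ifitm3. The windows below belong to 3 members that fell in biotin-positive libraries (Isg15, Ifit1 and Ifitm3), 1 whose level was alike in all groups (Oas1a) and the 1 that rose (Epsti1). They lie at chr4:156200769-156201068, minus strand (Isg15), chr19:34640639-34640938, plus strand (Ifit1), chr7:141010695-141010994, minus strand (Ifitm3), chr5:120907476-120907775, minus strand (Oas1a) and chr14:77903989-77904288, plus strand (Epsti1). Each is written 5′ to 3′ along its gene, with ISRE matches in capitals.
Isg15: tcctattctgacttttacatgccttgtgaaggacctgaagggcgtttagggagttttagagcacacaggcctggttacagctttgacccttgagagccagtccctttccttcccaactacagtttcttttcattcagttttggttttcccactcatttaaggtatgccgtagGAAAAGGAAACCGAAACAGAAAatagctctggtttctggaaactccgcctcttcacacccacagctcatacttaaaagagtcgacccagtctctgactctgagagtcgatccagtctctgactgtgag
Ifit1: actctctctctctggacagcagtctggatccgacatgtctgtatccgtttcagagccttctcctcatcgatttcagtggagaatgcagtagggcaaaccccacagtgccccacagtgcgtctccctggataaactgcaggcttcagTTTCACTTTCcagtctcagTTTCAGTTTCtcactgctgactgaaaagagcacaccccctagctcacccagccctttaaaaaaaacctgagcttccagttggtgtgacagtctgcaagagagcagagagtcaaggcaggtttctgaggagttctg
Ifitm3: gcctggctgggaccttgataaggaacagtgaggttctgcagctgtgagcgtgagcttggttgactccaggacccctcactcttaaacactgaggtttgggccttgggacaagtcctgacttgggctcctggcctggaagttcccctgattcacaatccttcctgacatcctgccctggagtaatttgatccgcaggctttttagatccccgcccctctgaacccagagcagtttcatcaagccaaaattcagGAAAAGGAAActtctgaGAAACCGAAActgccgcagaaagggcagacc
Oas1a: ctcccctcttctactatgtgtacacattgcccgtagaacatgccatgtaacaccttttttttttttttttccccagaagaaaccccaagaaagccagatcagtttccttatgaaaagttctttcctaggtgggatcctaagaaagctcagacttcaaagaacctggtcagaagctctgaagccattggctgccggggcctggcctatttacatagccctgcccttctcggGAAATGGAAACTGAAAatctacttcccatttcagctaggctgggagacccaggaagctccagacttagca
Epsti1: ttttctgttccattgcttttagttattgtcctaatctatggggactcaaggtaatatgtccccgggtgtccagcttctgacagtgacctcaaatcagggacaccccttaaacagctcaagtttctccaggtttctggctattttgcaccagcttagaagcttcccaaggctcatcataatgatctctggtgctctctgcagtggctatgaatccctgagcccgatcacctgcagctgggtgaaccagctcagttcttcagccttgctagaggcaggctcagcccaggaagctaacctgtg
Isg15 held 3 matches that overlap in 1 run, Ifit1 and Ifitm3 held 2 separate matches each, and Oas1a held 2 that overlap. The window of Epsti1 held no match, which says only that these letters are not in these 300 bases.

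Total counts ran from 14518099 to 33260704 per library, and the number of genes with a count from 13090 to 13455 in biotin-positive, 14225 to 15742 in biotin-negative and 13113 to 13596 in Cd40-null libraries. The library means of Cd40, the gene targeted in the null mice, were 1062, 511 and 63.7 CPM in the same order (CPM, a gene's count scaled to a common library total). Of 11 general DC markers, the growth factor receptor Flt3 (1015, 849 and 829 CPM) and the migration receptor Ccr7 (2886, 3259.9 and 2728 CPM) were high in every group. Most of the 11 were nonetheless lower with biotin than without it, 9 with log2 differences below 0 and 2 above (median -1.32). Their summed level was 5302 to 7715 CPM with biotin against 8736 to 11427.5 CPM without it. In Cd40-null libraries the sum was 6602 and 8141 CPM. The marker Clec9a of XCR1-positive DCs held 1 count in all libraries together, and Xcr1 itself 2.0, 3.09 and 2.15 CPM.

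Setting the biotin groups side by side asks what sets DCs labelled by T cells apart from unlabelled DCs of the same gate. In biotin-positive DCs, 11 of the 39 members fell, 1 rose and 27 were not called. The fall took in the dynamin-like Mx1 and Mx2, the nucleic acid sensors Pyhin1 and Zbp1, the transcription factor Irf7, the membrane proteins Ifitm3 and Ifi27l2a, Isg15, Ifit1, Oasl1 and Ifi44. The count of 11 includes Ifi44, which passed the filter through 3 biotin-negative libraries alone. The rise was that of Epsti1, the most highly expressed member per kilobase. The members Stat2, Irf9 and Usp18, which act near the receptor, and the sensor Ifih1 differed by at most 1.18-fold, and none of them was called. The receptor chain gene Ifnar1, which is not a member, was called lower (log2 -0.45). A gene was called when edgeR's quasi-likelihood test gave a Benjamini-Hochberg adjusted p under 0.05 over all genes tested. By that rule 7.75% of all genes were called, 4.05% lower and 3.7% higher. Log2 fold changes, biotin-positive over biotin-negative, had a median of -0.58 over the members and -0.03 over all genes, and 32 of 39 were below 0. The members were chosen with earlier results of these data known, so values over all genes are given for description only. The biotin-positive and biotin-negative libraries did not overlap for 6 members that were lower and 1 that was higher in the former, where 2.41% and 2.6% of all genes did not overlap. When the detected-gene number, which does not overlap between these groups, entered as a covariate, edgeR called 0 members (13 at an unadjusted p under 0.05) and 11 of all genes. The log2 differences of the 12 members kept their sign in that fit. Mx1 (-1.72), Epsti1 (0.79), Oasl1 (-3.10) and Isg15 (-1.05) were nearer to 0 than without the covariate. The others were not, among them Pyhin1 (-1.74) and Ifitm3 (-3.43).

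**Figure D1:**
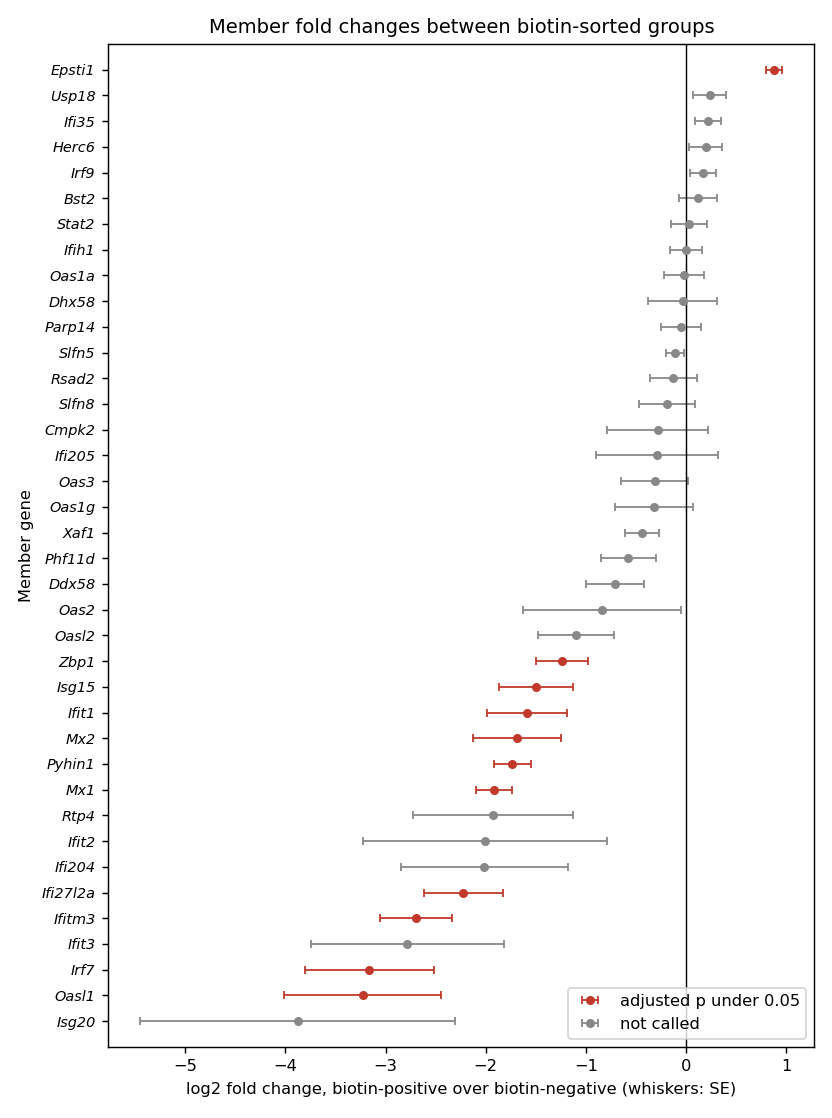
Log2 fold change of each member, biotin-positive over biotin-negative libraries, with SE as whiskers, for 38 members (Ifi44, at 0 in all biotin-positive libraries, has no finite ratio and is left out). Epsti1 stands alone to the right at 0.88, a block from Usp18 to Slfn8 sits within 0.25 of 0, and the called members at the lower end run from -1.24 (Zbp1) to -3.23 (Oasl1).

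Markers of other cells moved with these genes. Of 28 monocyte and macrophage markers tested 14 fell and 0 rose, and the list's summed level was 1060.2 to 1451 CPM in biotin-positive, 1562 to 3097 CPM in biotin-negative and 1696 to 2147 CPM in Cd40-null libraries. Ctss, which DCs also express, made up 74.3% or more of that sum in biotin-positive libraries and 37.6% to 78.7% in biotin-negative ones. Without it the levels were 185 to 363, 353 to 1933 and 502 to 863 CPM. Mrc1 was at 0 in all biotin-positive and Cd40-null libraries and at a mean of 4.73 CPM in biotin-negative ones, and Ccr2 averaged 0.219, 24.7 and 0.804 CPM. Markers of plasmacytoid DCs (13 tested) included 1 that rose, Irf8, and 2 that fell, with summed levels of 499 to 778 CPM, 574 to 889 CPM and 733 to 777 CPM; the defining Siglech averaged 0.696, 0.526 and 1.78 CPM. Langerhans cell markers went the other way, at 303 to 362 CPM, 59.5 to 171 CPM and 132 to 143 CPM for 7 genes, of which 2 rose and 0 fell. Markers of CD11b-positive, conventional type 2 DCs fell in 6 of 12 tested and rose in 0, with sums of 182 to 316 CPM, 491 to 754 CPM and 519 to 561 CPM. Of 11 general DC markers 5 fell and 0 rose, of 7 type 1 DC markers 1 rose (Irf8) and 0 fell, and of 8 B cell markers and 1 neutrophil marker 0 were called by edgeR (0 and 1 at an unadjusted p under 0.05). Summed levels of 11 NK cell markers were 39.8 to 73.1 CPM, 152 to 246 CPM and 134 to 164 CPM (5 tested, 0 rose and 2 fell). T cell markers summed to 56.9 to 88 CPM, 89.3 to 212 CPM and 128 to 214 CPM (14 tested, 0 rose and 1 fell), although 11 of the 14 had log2 differences above 0. The part of these cells in the members' differences was not tested, and in RNA from pooled cells, fewer cells of a type and less RNA per cell cannot be told apart.

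**Figure D2:**
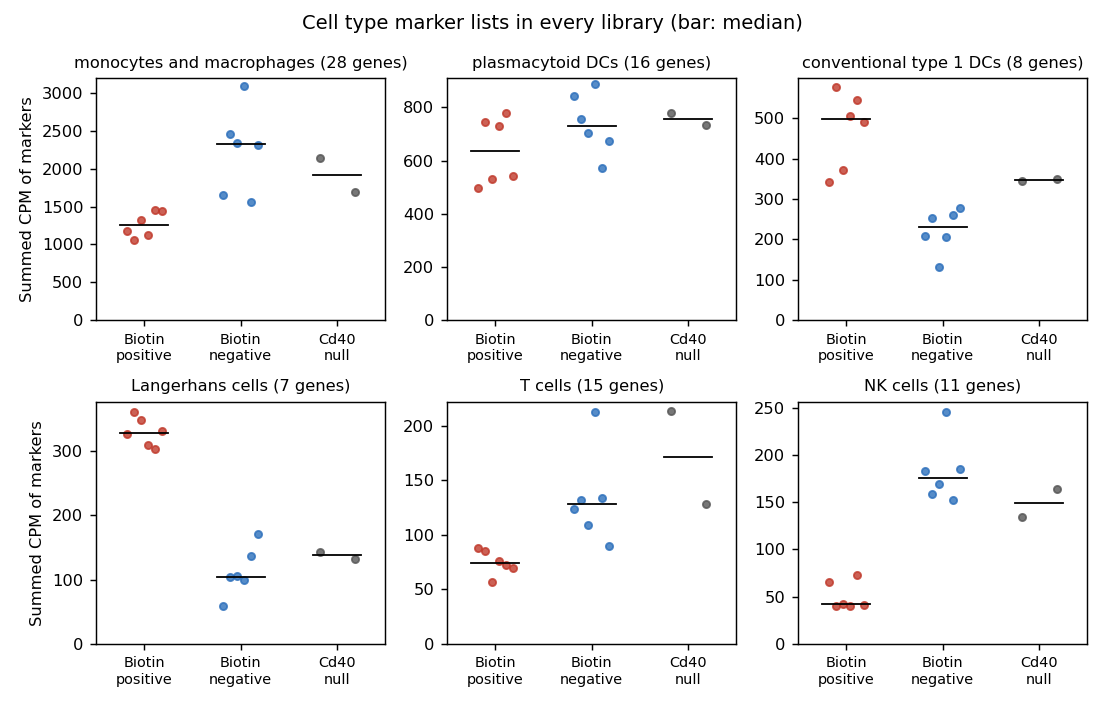
Summed CPM of 6 lists of cell type markers in each library, by group, with the median as a bar. Monocyte and macrophage, T cell and NK cell markers are lowest in biotin-positive libraries and Langerhans cell markers highest. Conventional type 1 DC markers, mostly Irf8, are higher there than in biotin-negative libraries but overlap the Cd40-null ones, and plasmacytoid DC markers overlap between all groups.

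Among the 7 sensors of foreign nucleic acid 2 fell, 5 were not called and 0 rose. Pyhin1, a DNA-binding protein of the PYHIN family that RefSeq lists as a synonym of Ifi209 (chromosome 1, 173630859 to 173647928), ran from 38.1 to 90.2 CPM (median 51.9) in biotin-positive and from 134 to 238 CPM (median 197) in biotin-negative libraries. Every biotin-positive library was below every biotin-negative one, and Pyhin1 was 3.33-fold lower (log2 -1.73, SE 0.19, adjusted p = 2.20e-05). Zbp1, which binds nucleic acid in the Z form and can start cell death (chromosome 2, 173206612 to 173218923), ran from 8.41 to 23.9 CPM (median 17.8) and from 21.8 to 54.9 CPM (median 42.9). Here the highest biotin-positive library lay above the lowest biotin-negative one, and the difference was 2.36-fold (log2 -1.24, SE 0.26, adjusted p = 0.00666). The RNA helicases that sense viral RNA were not called. Ifih1, which encodes MDA5, ran from 116 to 162 CPM (median 143) and from 89.4 to 190.2 CPM (median 142) (log2 0.00, SE 0.16, adjusted p = 0.996). Ddx58, which encodes RIG-I, stood at a log2 difference of -0.71 (SE 0.29, adjusted p = 0.152), and their regulator Dhx58 at -0.04. Of the other PYHIN genes, Ifi204 had a log2 difference of -2.01 and Ifi205 of -0.29. Pyhin1, Ifi204 and Ifi205 all belong to a cluster of similar genes, so that short reads may be shared among them.

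Of the 3 transcription factors only Irf7 was called. Irf7, which drives the second wave of interferon genes (chromosome 7, 141262706 to 141266481), ran from 1.08 to 13.7 CPM (median 3.37) in biotin-positive and from 7.1 to 96.8 CPM (median 42.7) in biotin-negative libraries. The biotin-negative libraries were spread widely, with replicate 3 highest and replicate 5 at 7.1 CPM, under biotin-positive replicate 1. Irf7 was 8.95-fold lower in biotin-positive libraries (log2 -3.16, SE 0.64, adjusted p = 0.00498), and 13.9-fold lower without biotin-positive replicate 1, the highest of its group. Over the 22 alternative fits its log2 difference ran from -4.32 to -2.77. Stat2 and Irf9, which take part in ISGF3, ran from 77.5 to 141 CPM (median 124) and from 115 to 153 CPM (median 129) in biotin-positive libraries. In biotin-negative libraries they ran from 79.2 to 149 CPM (median 119) and from 84 to 152 CPM (median 115), so both overlapped over most of their range (log2 0.03, SE 0.18, and log2 0.17, SE 0.13; adjusted p = 0.962 and 0.534). Usp18, which strips ISG15 from proteins and blocks signalling at IFNAR2, was not called either, at 91 to 164 CPM (median 140.1) against 80.7 to 138 CPM (median 123) (log2 0.23, SE 0.17, adjusted p = 0.496).

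Of the 10 effectors that act on RNA, all had log2 differences below 0, 2 fell and 8 were not called. Ifit1, which binds viral RNA that lacks the host's cap methylation (chromosome 19, 34640871 to 34650009), ran from 7.21 to 34.8 CPM (median 11.5) in biotin-positive and from 18 to 76.1 CPM (median 44.2) in biotin-negative libraries. The top biotin-positive value was that of replicate 3, and the other 5 lay below every biotin-negative library. Ifit1 was 3.01-fold lower (log2 -1.59, SE 0.40, adjusted p = 0.0202), and its call was lost without biotin-negative replicate 2 (adjusted p = 0.0525). Its neighbours Ifit2 and Ifit3 were at log2 differences of -2.01 and -2.78 but varied more, with SEs of 1.22 and 0.96 and adjusted p = 0.398 and 0.0917. Oasl1, an oligoadenylate synthetase-like protein known to restrain translation of Irf7 in mice (chromosome 5, 114923240 to 114937915), ran from 0 to 4.93 CPM (median 1.05) and from 5.26 to 28.1 CPM (median 15.5) without overlap (9.36-fold lower, log2 -3.23, SE 0.79, adjusted p = 0.0169). Without biotin-positive replicate 3, which was highest in its group, Oasl1 was 15.3-fold lower. Over the 22 alternative fits its log2 difference ran from -3.94 to -2.95. Oasl2, next to it, stood at -1.10 (SE 0.38, adjusted p = 0.0918). The synthetases Oas1a, Oas1g, Oas2 and Oas3, which lie side by side on chromosome 5 and make the messenger that activates RNase L, were not called, with log2 differences from -0.84 (Oas2) to -0.02 (Oas1a). Oas1a ran from 24.3 to 52.5 CPM (median 43) in biotin-positive and from 32.1 to 56 CPM (median 38.2) in biotin-negative libraries. The exonuclease gene Isg20 was at most 3.84 CPM in any library and was not called (adjusted p = 0.16).

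Of 9 other antiviral effectors 4 fell, 5 were not called and 0 rose. Mx1, a dynamin-like GTPase against influenza viruses (chromosome 16, 97447035 to 97462907), ran from 85.7 to 168 CPM (median 111) in biotin-positive and from 305 to 625.3 CPM (median 412) in biotin-negative libraries. Every biotin-negative library stood above every biotin-positive one, and Mx1 was 3.78-fold lower (log2 -1.92, SE 0.18, adjusted p = 9.46e-06). RefSeq annotates Mx1 and Mx2 of this strain as transcribed pseudogenes, whereas GENCODE M21 gives Mx1 as protein-coding and Mx2 as a polymorphic pseudogene, and the counts speak of transcripts only. Mx2 ran from 1.27 to 7.3 CPM (median 4.56) and from 5.93 to 20.9 CPM (median 15.2) (3.22-fold lower, log2 -1.69, SE 0.44, adjusted p = 0.0245). Its call was lost without biotin-positive replicate 1 (adjusted p = 0.0521) or biotin-negative replicate 2 (0.0541) or 4 (0.0557). Ifitm3, which stops viruses from fusing with endosomes (chromosome 7, 141009586 to 141010770), ran from 2.84 to 7.95 CPM (median 5.08) and from 10.1 to 51.4 CPM (median 33.1), with no overlap, and was 6.48-fold lower (log2 -2.70, SE 0.36, adjusted p = 0.000155). Isg15, a ubiquitin-like modifier (chromosome 4, 156199424 to 156200818), ran from 2.76 to 6.78 CPM (median 6.0) and from 7.72 to 23.2 CPM (median 13.2), narrowly without overlap (2.83-fold lower, log2 -1.50, SE 0.37, adjusted p = 0.0173). Without biotin-negative replicate 1 the adjusted p of Isg15 was 0.0505. Of the members not called, Herc6, the main ligase for ISG15 in mice, was at 0.19 on the log2 scale. Bst2, which encodes the virus-holding protein tetherin, was at 0.12, and Rsad2, which encodes viperin, at -0.13. The nucleotide kinase gene Cmpk2, which neighbours Rsad2, stood at -0.28 and Rtp4 at -1.93 (SE 0.80).

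The remaining 9 members held the 1 rise, with 2 falls and 6 not called. Epsti1, an interferon-induced gene named for epithelial-stromal interaction (chromosome 14, 77904239 to 78002657), ran from 2088 to 2545 CPM (median 2324) in biotin-positive and from 1070.3 to 1402 CPM (median 1284) in biotin-negative libraries. Every biotin-positive library was above every other library of the series, and the difference between the biotin groups was 1.84-fold (log2 0.88, SE 0.08, adjusted p = 7.80e-06). Per kilobase of exon (GENCODE M21, 38 members with a length), Epsti1 had 992 CPM in biotin-positive libraries, and the next member, Usp18, 48. In biotin-negative libraries the order was Epsti1 (539 CPM per kilobase), Mx1 (116), Ifitm3 (48.8) and Usp18 (40.8). Epsti1 took 56.6% to 63.0% of the members' summed CPM in biotin-positive libraries, compared with 30.6% to 40.9% in biotin-negative libraries. The sum of the other 38 members was 1404 to 1760.2 CPM in the first and 1807 to 2589 CPM in the second, whereas the sum of all 39 overlapped (3566 to 4064 CPM and 2916 to 3892 CPM).

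Ifi27l2a, a small interferon-induced membrane protein (chromosome 12, 103442167 to 103443680), ran from 1.31 to 5.2 CPM (median 3.28) in biotin-positive and from 5.98 to 21.4 CPM (median 16.2) in biotin-negative libraries, without overlap, and was 4.67-fold lower (log2 -2.22, SE 0.39, adjusted p = 0.00165). Ifi44 was at 0 in all biotin-positive libraries and in biotin-negative replicates 4, 5 and 6 at 5.58, 2.5 and 1.32 CPM. Against a floor of 3 counts over the biotin-positive group its mean was at least 60.6-fold lower there (adjusted p = 0.0488), and at least 30.0-fold lower without biotin-negative replicate 4. That call rests on few libraries: it was kept in 1 of the 14 fits that left out a library (adjusted p from 0.0395 to 0.0938), and biotin-negative replicates 1, 2 and 3 held at most 0.0468 CPM. The apoptosis-related Xaf1 (log2 -0.44, SE 0.17) and Phf11d (log2 -0.58, SE 0.27) were not called. Ifi35 (0.22), the schlafen genes Slfn5 (-0.11) and Slfn8 (-0.19) and the ADP-ribosyltransferase gene Parp14 (-0.05) lay within 0.25 of 0 on the log2 scale. In all 13 members did so: these 4, Bst2, Dhx58, Herc6, Ifih1, Irf9, Oas1a, Rsad2, Stat2 and Usp18. Of all genes 36.9% were that close to 0.

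**Figure D3:**
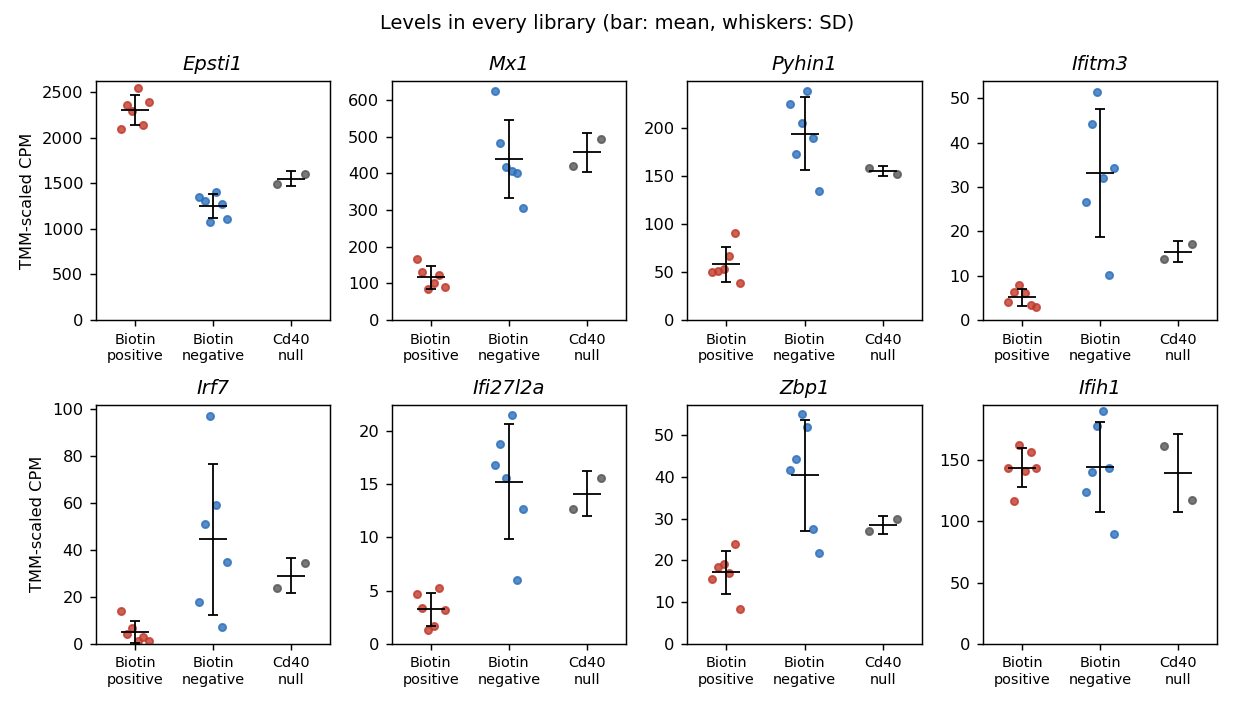
TMM-scaled CPM of 8 members in each of the 14 libraries, by group, with mean and SD, each panel on its own axis from 0. Epsti1 is highest in biotin-positive libraries, Mx1, Pyhin1, Ifitm3, Irf7, Ifi27l2a and Zbp1 have their lowest means there, and Ifih1 overlaps across all 3 groups.

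The members did not vary together in every library. Biotin-negative replicate 4 held the highest level of the 14 libraries for 12 members and replicate 3 for 9, whereas replicates 5 and 6 did so for 1 each. The mean log2 CPM over the 39 members was 5.34 in biotin-negative replicate 4 and 4.24 in replicate 5, the extremes of that group. In biotin-positive libraries it went from 3.20 (replicate 5) to 4.50 (replicate 3), so replicate 3 lay above the lowest biotin-negative library. Ifit1, Ifit2, Ifit3, Oas2 and Oas3 were all at their biotin-positive maximum in replicate 3, at 34.8, 29.6, 8.41, 17.3 and 42.9 CPM, while Mx1 in that library, at 85.7 CPM, was at its minimum. The monocyte and macrophage sum was highest in biotin-negative replicate 4 and lowest in replicate 5 among biotin-negative libraries (3097 and 1562 CPM), the same 2 libraries as for the members' mean. Without Ctss the sum was again highest in replicate 4 (1933 CPM) but lowest in replicate 1 (353 CPM), where the members' mean was 4.99.

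**Figure D4:**
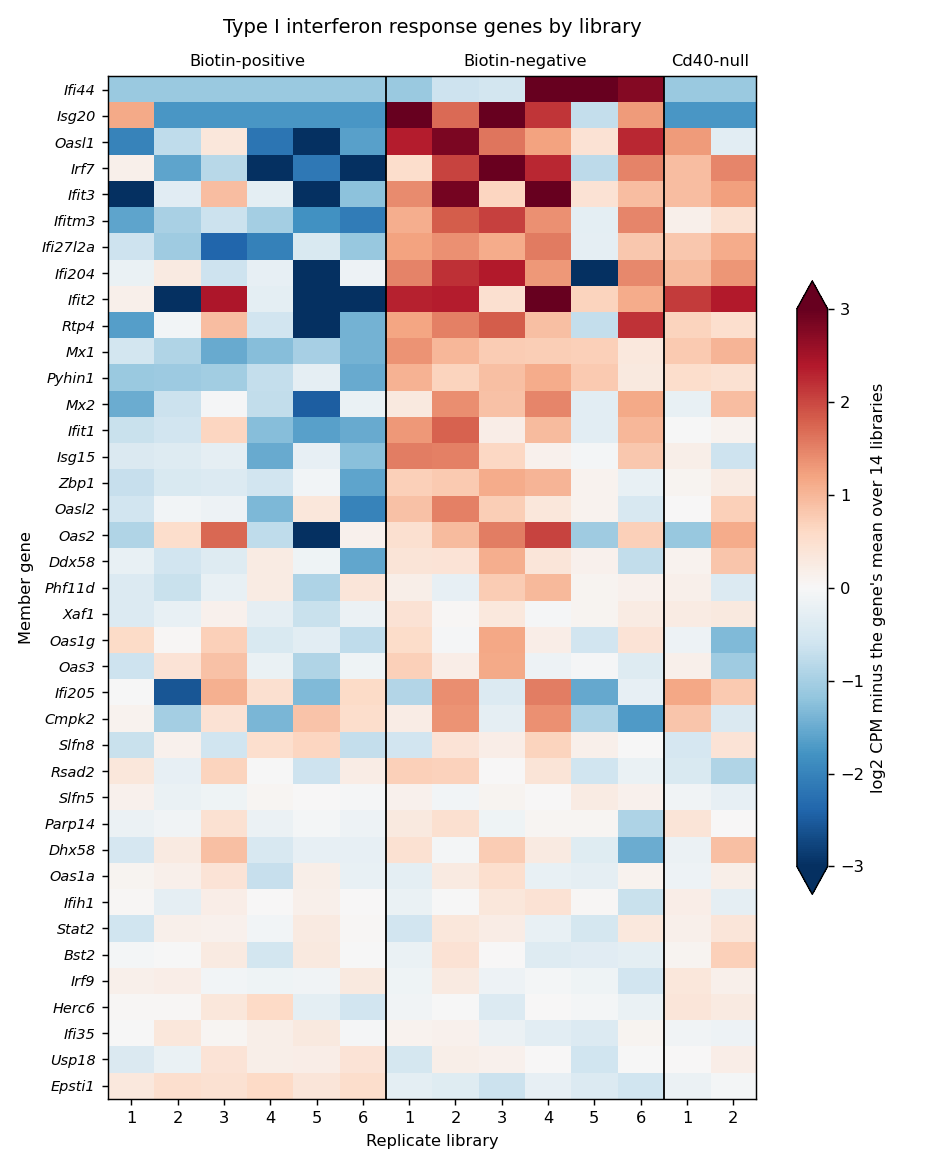
Log2 CPM of each of the 39 members in each library, relative to the gene's mean over 14 libraries (red higher, blue lower; colours end at 3 either way), with genes ordered by their difference between the biotin groups. The upper rows are mostly blue in biotin-positive and red in most biotin-negative libraries. Ifi44, at the top, is on the blue side in several biotin-negative libraries. Biotin-negative replicate 5 is on the blue side for several genes, among them Irf7, Ifitm3, Isg20, Rtp4, Ifi27l2a and Ifi204, most deeply for Ifi204. The lower rows are mostly paler, with single libraries of Ifi205, Cmpk2 and Dhx58 standing out. Epsti1 is faintly red in biotin-positive and faintly blue in biotin-negative libraries.

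Neighbouring members gave both like and unlike calls, and differences between neighbours were not tested. Mx1 and Mx2 on chromosome 16 both fell, as did Ifitm3 and Irf7 on chromosome 7. Of the trio Ifit1, Ifit2 and Ifit3 on chromosome 19, of the trio Pyhin1, Ifi204 and Ifi205 on chromosome 1 and of the pair Oasl1 and Oasl2 on chromosome 5, 1 gene each was called. The uncalled Ifit2 (log2 -2.01) and Ifit3 (-2.78) lay further below 0 than Ifit1 (-1.59), and Ifi204 (-2.01) further than Pyhin1 (-1.73). Ifi205 (-0.29) and Oasl2 (-1.10, against -3.23 for Oasl1) lay nearer. Of the 4 Oas genes on chromosome 5, the pair Rsad2 and Cmpk2 on chromosome 12, and the pair Slfn5 and Slfn8 on chromosome 11, 0 were called by edgeR.

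Biotin-positive DCs were next set against DCs that lack Cd40. Mx1, Pyhin1 and Ifi27l2a were lower in biotin-positive libraries and Epsti1 was higher, 4 of the 12 members called between the biotin groups; the other 35 members were not called, and 2.27% of all genes were. Mx1 was 3.93-fold lower, at 420.3 and 495 CPM in the 2 null libraries (log2 -1.98, SE 0.23, adjusted p = 0.000228). Pyhin1 was 2.66-fold lower, with 158 and 151 CPM in the null libraries (log2 -1.41, SE 0.24, adjusted p = 0.00421), and Ifi27l2a 4.33-fold lower, with 12.6 and 15.6 CPM (log2 -2.12, SE 0.49, adjusted p = 0.0299). Epsti1 was 1.49-fold higher over null levels of 1487 and 1605 CPM (log2 0.57, SE 0.12, adjusted p = 0.0142). For all 4 the 2 null libraries lay outside the range of the 6 biotin-positive ones.

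Of all genes 1.05% were lower and 1.22% higher by the same rule. The groups did not overlap for 8 lower and 2 higher members, against 8.07% and 7.81% of all genes. The median log2 difference was -0.41 over the members and 0.04 over all genes. Ifitm3 (13.7 and 17 CPM in null libraries) and Irf7 (23.6 and 34.3 CPM) were at log2 -1.59 and -2.55, with adjusted p = 0.0758 and 0.102. Isg15 (9.01 and 5.16 CPM) and Ifit1 (22.1 and 24 CPM) stood nearer to the biotin-positive level, at log2 -0.43 (SE 0.50) and -0.66 (SE 0.53). Zbp1 stood at 26.9 and 30.0 CPM in the null libraries, Oasl1 at 9.5 and 3.1 CPM and Mx2 at 6.32 and 14.2 CPM, none of them called, and Ifi44 was at 0 in both. Detected genes overlapped in number between these groups, and with that number as a covariate all 4 calls were kept. Of 28 monocyte and macrophage markers 1 was called, as lower in biotin-positive libraries, and 11 had an unadjusted p under 0.05. Their log2 differences were below 0 in 23 of 28, with a median of -1.01, and 12 were lower without overlap, as were 8.07% of all genes. Without null replicate 1 or 2 the calls of Epsti1 (adjusted p = 0.217 and 0.0898), Pyhin1 (0.0689 and 0.0501) and Ifi27l2a (0.139 and 0.214) were lost. That of Ifi27l2a was also lost without biotin-positive replicate 2 (0.0513), and that of Mx1 was kept in all 14 such fits.

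Between biotin-negative and Cd40-null DCs edgeR called 0 of the 39 members (5 at an unadjusted p under 0.05), and DESeq2 and limma voom also called 0. Of all genes 0.317% were called, 0.274% higher and 0.0422% lower in biotin-negative libraries. The groups did not overlap for 2 members that were higher and 2 that were lower, against 6.23% and 4.47% of all genes. Mx1 differed by -0.06 on the log2 scale (SE 0.24), Ifi27l2a by 0.11 (SE 0.53) and Pyhin1 by 0.32 (SE 0.26). The log2 differences of at least that of Rsad2 (0.91, SE 0.36) were those of Oasl1 (1.31, SE 1.10), Ifitm3 (1.11, SE 0.51), Isg15 (1.07, SE 0.54), Ifit3 (1.06, SE 1.35), Oas1g (1.02, SE 0.59) and Ifit1 (0.93, SE 0.58), besides Isg20 and Ifi44. The last 2 were at 0 in both null libraries. With the null group set to 3 counts in all, Isg20, at 0.102 to 3.84 CPM (median 1.14) in biotin-negative libraries, was at least 23.6-fold and Ifi44 at least 23.3-fold higher there, neither of them called (adjusted p = 0.456 and 0.537). Epsti1 lay below both null libraries in every biotin-negative library, by -0.31 on the log2 scale (SE 0.11, adjusted p = 0.4). The median was 0.25 over the members and 0.06 over all genes, with 27 members above 0 and 12 below. The monocyte markers Ccr2, Cd14 and Mrc1 were near their biotin-positive level in null libraries (2.34 CPM for Cd14, against 1.27 CPM with biotin and 20.5 CPM without). Lyz1 and Lyz2, in contrast, were nearer to the biotin-negative level (56 and 215 CPM, against 53.6 and 315). Cx3cr1 (18.2 against 4.19 CPM) and Vcam1 (149 against 131 CPM) were above that level. These markers were singled out after their values were seen. Over all 28, 20 log2 differences, biotin-negative over Cd40-null, were above 0 and 8 below. The 3 comparisons share libraries, so their values for a member are not independent of each other.

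Other genes of the pathway were taken from lists of ligands, receptors, sensors, IRF factors, regulators and further interferon-stimulated genes that exclude the members. None of 19 interferon genes passed the filter, and their summed level was at most 1.162 CPM in any library. Ifnb1 had 0 counts in every library; 3 counts over a group would be 0.0261, 0.0233 and 0.0678 CPM, a limit that covers counting error only. Of 11 receptor and JAK-STAT genes 2 fell in biotin-positive against biotin-negative libraries and 0 rose. These were Ifnar1, a chain of the type I receptor (133 against 181 CPM, log2 -0.45, SE 0.11, adjusted p = 0.017), and Ifngr1, the ligand-binding chain of the interferon-gamma receptor (30.2 against 78.9 CPM, log2 -1.38, SE 0.18, adjusted p = 0.00014). Against Cd40-null libraries Ifngr1 was also lower in biotin-positive ones (30.2 against 69 CPM, log2 -1.19, SE 0.24, adjusted p = 0.0134). Ifnar1 was not (133 against 116 CPM, log2 0.20, SE 0.16, adjusted p = 0.624). Its biotin-negative level lay above the null libraries without overlap but was not called (log2 0.65, SE 0.16, adjusted p = 0.12).

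Of 16 sensors and adaptors 1 fell, Unc93b1, the chaperone of endosomal Toll-like receptors (log2 -0.49, SE 0.14, adjusted p = 0.0367), and 0 rose. Of 7 other IRF factors 3 rose and 0 fell: Irf5 (495 against 287 CPM, log2 0.79, SE 0.11, adjusted p = 0.000331), Irf8 (437 against 191 CPM, log2 1.196, SE 0.18, adjusted p = 0.000431) and Irf1 (1124 against 696 CPM, log2 0.69, SE 0.12, adjusted p = 0.00141). Irf7 thus went the opposite way to these 3 in the same libraries. Of 12 negative regulators 1 rose, the phosphatase gene Ptpn6 (log2 0.68), and 1 fell, Socs3 (log2 -2.40), a feedback inhibitor of cytokine receptors.

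The 67 tested genes of the list of further interferon-stimulated genes went both ways, with 8 higher and 10 lower in biotin-positive libraries and a median log2 difference of -0.24. The 4 with the smallest p were Ube2l6 (log2 0.74, SE 0.09), Lgals3bp (-1.13, SE 0.15), N4bp1 (0.96, SE 0.14) and Ifitm2 (-0.90, SE 0.13). Uba7 and Ube2l6, which encode enzymes that join ISG15 to proteins, are given together because they were singled out after their values were seen. The activating enzyme Uba7 rose (810.1 against 586 CPM, log2 0.47, SE 0.09, adjusted p = 0.00388), as did the conjugating enzyme Ube2l6 (850.4 against 507 CPM, adjusted p = 4.03e-05). The ligase Herc6 and the protease Usp18 were not called, and Isg15 fell. Between biotin-negative and Cd40-null libraries Ifitm2 was the 1 gene of this list that was called (153 against 66.3 CPM, log2 1.21, SE 0.20, adjusted p = 0.0102).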

How the data were processed

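Per the submitters' processing notes, Bowtie2 2.1.0, RSEM 1.2.8 and DESeq2 1.16.0 were used with mm10; their roles and the gene annotation are not given in the sources used here. The authors deposited RSEM expected counts for 23420 symbols, all whole numbers, from 38-base paired reads per the labels. Normalized signal values deposited by the authors cover 10321 genes, 37 of them members. Judged from the values, each is a count over a constant of its library (largest relative deviation 5.11e-15).

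Counts, rounded (a step that changed none), were fitted in R 4.3.3 with edgeR 4.0.16: a filterByExpr min.count of 10, TMM scaling, 1 model of 14 libraries and 3 groups, robust glmQLFit and a two-sided glmQLFTest, adjusted over all 14217 genes tested. SE is the absolute log2 fold change over the square root of F. Log2 CPM used a prior count of 2. CPM of genes and totals come from the same TMM-scaled library sizes. On simulated counts for 14217 genes, with 200 changed, the fit recovered 25% of 2-fold and 57.5% of 4-fold changes between the biotin groups, 8% and 52% when biotin-positive was set against Cd40-null, and 6% and 43.5% when biotin-negative was.

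The members, lists and tests were chosen with earlier results of these data known. Every member is named with its values or its call; of each list of other pathway genes, counts and up to 4 genes with the smallest p between the biotin groups, of marker lists, counts, sums and defining markers. Genes singled out otherwise are said to be, and 1 result on a listed gene is not reported here. Positions are GENCODE M21 (GRCm38, the build of mm10), with 38 of 39 members matched by symbol; Pyhin1 was matched through RefSeq synonyms. Alternatives were DESeq2 size factors, no filter, DESeq2 1.42.0, limma 3.58.1 voom with quality weights, limma on log2 of the deposited signal plus 1, fits of 2 groups alone, a block for the replicate number, a detected-gene covariate, and each library left out.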

Additional observations from a re-analysis of the deposited data

Results flagged for a closer look

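In 5 of 77 groups of 6 libraries (a member in the biotin-positive or biotin-negative group), 1 library lay so far from the other 5 that its gap took up over 0.625 of the group's range. For independent values from a normal distribution chance gives about 1 in 20. The CPM used were not log-transformed, and members share libraries, so that rate is only a rough guide. Biotin-positive replicate 3 was the library in 3 of them. Ifit1 stood there at 34.8 CPM, with the other 5 between 7.21 and 15 CPM. Ifit2 stood there at 29.6 CPM, with the others between 0 and 6.05 CPM, and Parp14 at 74.8 CPM, with the others between 47.7 and 52.3 CPM. In biotin-negative replicate 4, Ifit2 was at 77.1 CPM, with the others between 7.54 and 28.3 CPM. Isg20 was at 0.622 CPM in biotin-positive replicate 1, which is 11 counts, and at 0 in the other 5.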

How the results depend on the processing

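Between the biotin groups, the count of members called (12) stayed within 1.5 times under every alternative except the detected-gene covariate, which left 0 members and 11 genes of 1102, with the sign of all 12 log2 differences kept (Mx1 -1.72, Pyhin1 -1.74); leaving out each library gave 9 to 12 members and 839 to 1104 genes. Ifi44 also lost its call with limma voom and with the block. Between biotin-positive and Cd40-null libraries (4 members, 323 genes), limma on the deposited signal called 2 members and 206 genes, while DESeq2 called 802 genes and limma voom 606; leaving out each library gave 1 to 5 members and 82 to 347 genes, the fewest without null replicate 1 (1 and 82) or 2 (1 and 85). Between biotin-negative and Cd40-null libraries (0 members, 45 genes), every alternative called 0 members, and genes numbered 272 with DESeq2, 6 with the detected-gene covariate and 12 to 54 with each library left out (20 without null replicate 1 and 12 without 2). A lone null library was assumed to vary like the other groups. With the replicate number as a block, members and genes called were 13 and 891, 2 and 129, and 0 and 19 in the same order; same-numbered biotin libraries did not deviate together (r from -0.02 to 0.01), and 1 of 6 correlated best with its own number. No called member changed direction under any alternative run. The causes of these changes were not tested.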
